A study of Mus musculus with 18 samples.

Results

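Cxcl9, Cxcl10 and Cxcl11 encode the 3 chemokines that bind the receptor CXCR3, and their transcripts were followed through lung neutrophils of mice with and without a working phagocyte oxidase. The genes were chosen by name, and all 3 were found among the 40481 gene IDs of the count table (ENSMUSG00000029417, ENSMUSG00000034855 and ENSMUSG00000060183) and among the 16575 genes with enough counts to be tested. CXCR3 ligands are secreted proteins that draw in cells carrying CXCR3, mainly activated T cells and NK cells. Interferons switch the genes on through STAT and IRF factors, most strongly interferon gamma for Cxcl9, and NF-kB adds to the response, above all at Cxcl10. In the lung they are known for steering T cells to sites of infection, and macrophages, epithelium and neutrophils can all make them. C57BL/6 mice carry a frameshift in Cxcl11 and make no working protein from it, and the count table lists the gene as a polymorphic pseudogene, so its values are those of a transcript only.

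All mice were C57BL/6. Wild-type (WT) animals were compared with animals whose Cybb gene is knocked out and which the labels call CGD, after chronic granulomatous disease. The product of Cybb, gp91phox, is the catalytic core of the oxidase behind the oxidative burst of phagocytes, and the knockout is not restricted to neutrophils by any label. The cells were lung neutrophils split by surface CD101, a protein gained as neutrophils mature, into CD101-negative (CD101neg) cells, called immature, and CD101-positive (CD101pos) cells, called mature. There were 6 groups of 3 libraries: CD101pos cells of naive WT mice, CD101pos cells of naive CGD mice, and both CD101pos and CD101neg cells of WT and of CGD mice 24 h after zymosan, a yeast cell wall preparation, given intranasally at 20 µg. The zymosan mice were female and 13 weeks old and the naive mice male and 12 weeks old, so zymosan cannot be told apart from sex and age. The labels do not say whether the libraries of a group came from different mice, and the p-values here cover only how far the samples of a group spread, which may be technical.

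Each library held 33713174 to 67939826 counts in genes. Levels are in CPM, a gene's counts scaled to the total of its library times a normalization factor (TMM). Cybb transcripts lay between 29.6 and 59.5 CPM in the 9 CGD libraries and between 126 and 283 CPM in the 9 WT libraries, with no overlap. Which stretch of Cybb the knockout removes is not given in the sources used here. Cd101 mRNA was lower in the CD101neg than in the CD101pos libraries of each genotype after zymosan, but the CGD CD101pos libraries (95.9 to 112 CPM) lay below the WT CD101neg ones (156 to 185 CPM). The 10 neutrophil markers listed summed to 18973 CPM (WT CD101neg replicate 1) to 117720 CPM (CGD CD101neg replicate 1), with S100a8 the most abundant in each group. In CD101neg cells the sums were 51675 to 117720 CPM in CGD and 18973 to 82095 CPM in WT. The listed markers of any other cell type summed to at most 2733 CPM in a library.

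The promoters of Cxcl10 and Cxcl9 are shown because the ligand genes moved together in the comparisons that follow. That of Cxcl11 was not analysed here. The 250 bases before each transcription start, from RefSeq on GRCm38.p6, lie on the minus strand of chromosome 5 at chr5:92348890-92349139 for Cxcl10 and chr5:92328080-92328329 for Cxcl9, and capitals mark the motifs found.
Cxcl10: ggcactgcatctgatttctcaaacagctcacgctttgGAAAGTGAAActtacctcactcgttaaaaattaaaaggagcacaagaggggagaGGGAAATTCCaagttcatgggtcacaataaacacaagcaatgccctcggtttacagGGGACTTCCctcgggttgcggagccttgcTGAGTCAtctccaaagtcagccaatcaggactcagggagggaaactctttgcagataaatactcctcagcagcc
Cxcl9: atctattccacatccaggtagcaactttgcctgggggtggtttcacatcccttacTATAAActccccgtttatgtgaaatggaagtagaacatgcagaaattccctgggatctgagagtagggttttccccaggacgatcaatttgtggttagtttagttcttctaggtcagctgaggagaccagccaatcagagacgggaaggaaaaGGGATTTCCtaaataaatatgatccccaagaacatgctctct
In Cxcl10 the core of the interferon-stimulated response element (GAAA, any 2 bases, GAAA) begins 213 bases before the start. It is followed by NF-kB motifs in a long form (GGGA, any 2 bases, TTCC) at 159 bases and a short form, GGGANTTCC, at 103 bases and by the AP-1 motif TGANTCA at 74 bases. In Cxcl9 a TATAAA motif begins 195 bases and a GGGANTTCC motif 42 bases before the start, and a TGANTCA motif lies in the 50 bases after it. Both strands were searched from 250 bases before to 50 bases after the start, and no 2 matches overlapped. Among 32851 promoters of that length, 3.44% held the response element core, 1.47% the long and 1.68% the short NF-kB motif, 7.81% TGANTCA and 13.6% TATAAA, and 44 (0.134%) held that core together with an NF-kB motif. The gamma-activated site TTCNNNGAA, present in 8.30% of promoters, was searched too and its letters were not in either window. These matches describe sequence only.

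Cxcl10 was by far the most abundant of the 3 transcripts. Its level in naive WT cells was 16.5, 10.5 and 9.26 CPM in replicates 1 to 3, and in naive CGD cells 22.6, 29.4 and 12.7 CPM. After zymosan it stood at 68.7, 29.6 and 49.8 CPM in WT CD101pos cells and at 60.4, 28.7 and 44.9 CPM in WT CD101neg cells. In CGD cells it reached 224, 372 and 779 CPM in the CD101pos sort and 342, 574 and 1683 CPM in the CD101neg sort. All 6 CGD zymosan libraries lay above all 12 other libraries, and replicate 3 was the highest in both CGD sorts. The 74179 counts of Cxcl10 in CGD CD101neg replicate 3 were the most of any library, and the 387 in WT naive replicate 3 the fewest.

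Cxcl9, which encodes the ligand also known as MIG, was scarce outside the CGD zymosan groups. WT naive replicates 1 to 3 held 0.233, 0.403 and 0 CPM, where the absence of a count allows up to 0.0718 CPM, and CGD naive replicates held 0.692, 0.747 and 0.0802 CPM. WT zymosan libraries held 0.745, 0.266 and 1.05 CPM in the CD101pos sort and 0.584, 0.440 and 0.910 CPM in the CD101neg sort. The CGD zymosan libraries stood apart from all of these, at 5.42, 8.86 and 20.7 CPM in CD101pos and 9.83, 8.16 and 32.1 CPM in CD101neg cells. Replicate 3 was again the highest in both CGD sorts. These levels rested on 262 to 1480 counts of Cxcl9 in a CGD zymosan library and on at most 58 counts elsewhere, so low levels carry wide counting error.

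Cxcl11 followed the same order at a similar low level. It was at 0.0332, 0.325 and 0.263 CPM in WT naive, 0.438, 0.218 and 0.112 CPM in CGD naive, 0.669, 0.0819 and 0.687 CPM in WT zymosan CD101pos and 0.424, 0.287 and 0.327 CPM in WT zymosan CD101neg replicates 1 to 3. CGD zymosan CD101pos cells held 2.75, 4.77 and 11.5 CPM and CD101neg cells 4.59, 7.28 and 24.0 CPM, with no overlap with any other group.

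**Figure D1:**
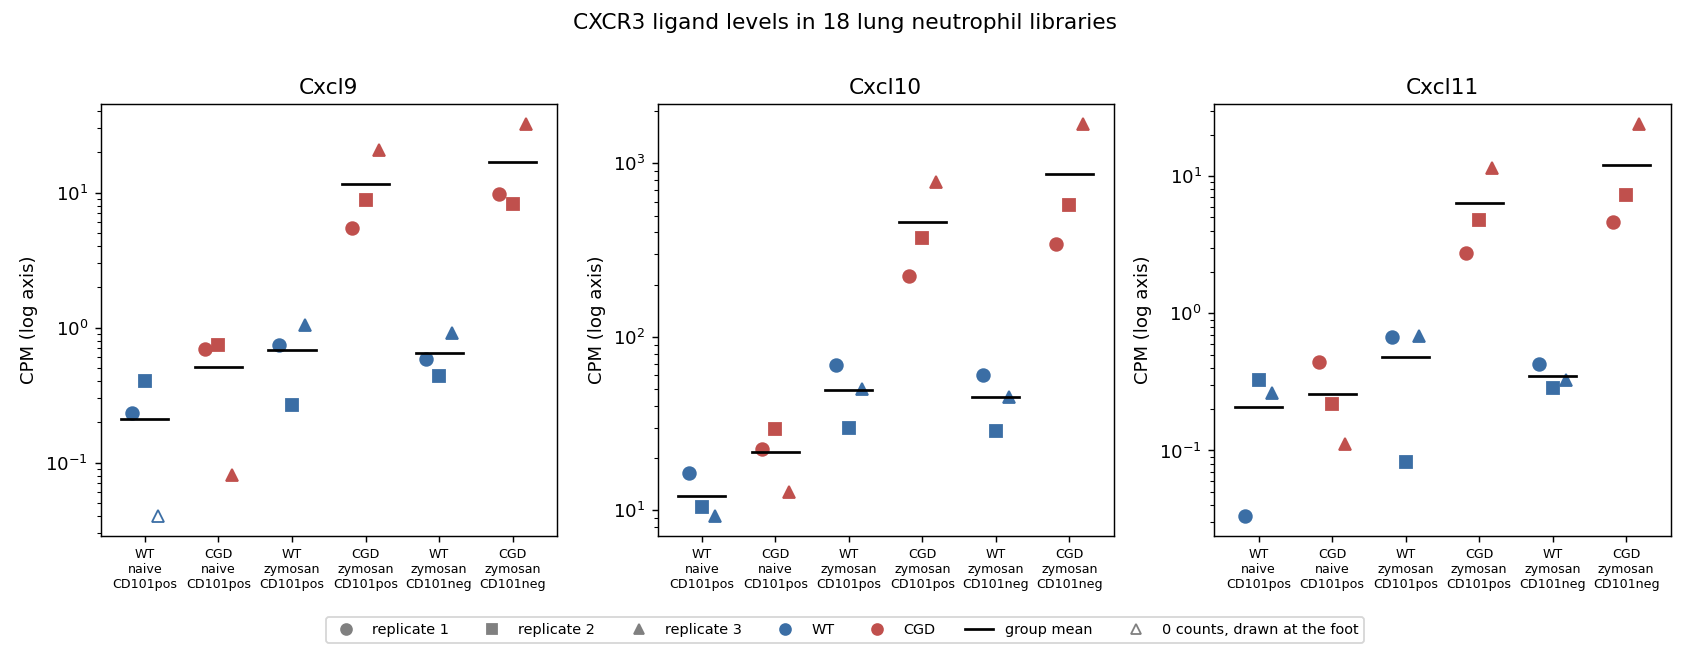
Level of Cxcl9, Cxcl10 and Cxcl11 in each of the 18 libraries, in CPM on a log axis, by group (horizontal axis), with symbols for replicate numbers and a bar at the group mean. The 6 CGD zymosan libraries lie above all others in each panel, with replicate 3 highest in both CGD sorts, and the open symbol is the WT naive library with 0 counts of Cxcl9.

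The group means of all 3 genes rose in 1 order, from WT naive through CGD naive, WT zymosan CD101neg, WT zymosan CD101pos and CGD zymosan CD101pos to CGD zymosan CD101neg. For Cxcl10 they were 12.1 ± 3.88, 21.6 ± 8.37, 44.7 ± 15.8, 49.4 ± 19.6, 458 ± 287 and 866 ± 717 CPM (SD, n = 3 each). For Cxcl9 they were 0.212 ± 0.202, 0.507 ± 0.370, 0.645 ± 0.241, 0.686 ± 0.394, 11.7 ± 8.0 and 16.7 ± 13.4 CPM. For Cxcl11 they were 0.207 ± 0.154, 0.256 ± 0.166, 0.346 ± 0.0701, 0.479 ± 0.344, 6.32 ± 4.55 and 11.9 ± 10.5 CPM. Of the neighbours in that order, only WT and CGD CD101pos cells after zymosan differed in the test, and CGD naive against WT CD101neg cells was not tested.

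Levels of different genes were compared per kilobase of exon, with exon lengths from GENCODE M21, which may not be the annotation behind the counts. In CGD CD101neg cells Cxcl10 stood at 385 ± 318, Cxcl9 at 5.54 ± 4.44 and Cxcl11 at 3.15 ± 2.76 CPM per kilobase (SD, n = 3). In WT CD101neg cells the same levels were 19.8 ± 7.03 for Cxcl10, 0.214 ± 0.0798 for Cxcl9 and 0.0912 ± 0.0185 for Cxcl11. Within a library Cxcl10 had 37.7 to 42.0 counts for each count of Cxcl9 in CGD CD101pos cells and 34.8 to 70.4 in CGD CD101neg cells. In WT cells after zymosan that ratio lay between 47.5 and 111 in CD101pos and between 49.4 and 103 in CD101neg cells, from far fewer Cxcl9 counts.

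Loss of Cybb went with higher CXCR3 ligand transcripts in both zymosan sorts, the question the genotype groups address. In CD101neg cells the log2 fold change of CGD over WT was 4.28 ± 0.60 for Cxcl10 (SE, 19.4-fold, adjusted p = 0.000236), 4.69 ± 0.83 for Cxcl9 (25.8-fold, adjusted p = 0.00159) and 5.09 ± 0.83 for Cxcl11 (34.1-fold, adjusted p = 0.000747). Their 95% confidence intervals ran from 3.0 to 5.55 for Cxcl10, from 2.93 to 6.45 for Cxcl9 and from 3.35 to 6.83 for Cxcl11. All 3 of 3 ligands were called higher, against a background of 6.67% of all tested genes called higher and 6.24% called lower in this comparison. Ranked by log2 fold change among the 16575 genes, Cxcl11 was number 15, Cxcl9 number 20 and Cxcl10 number 29.

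In CD101pos cells after zymosan the same comparison gave 3.21 ± 0.57 for Cxcl10 (9.28-fold, adjusted p = 0.00368), 4.07 ± 0.81 for Cxcl9 (16.8-fold, adjusted p = 0.00737) and 3.70 ± 0.78 for Cxcl11 (13.0-fold, adjusted p = 0.00946) on the log2 scale. Again 3 of 3 were called higher, where 2.77% of all genes were higher and 2.53% lower. No WT library overlapped a CGD library for any ligand in either sort, but the share of all tested genes that separate in this way was not counted. CGD replicate 3 held much of the size. Without CGD CD101neg replicate 3 the log2 fold changes in CD101neg cells were 3.36 for Cxcl10, 3.80 for Cxcl9 and 4.09 for Cxcl11, and without CGD CD101pos replicate 3 those in CD101pos cells were 2.59, 3.37 and 2.95, all still called. In linear terms these are over 1.5 times smaller folds.

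In naive CD101pos cells the genotypes were not told apart. The log2 fold change of CGD over WT was 0.84 for Cxcl10 (95% interval -0.29 to 1.96), 1.16 for Cxcl9 (-0.69 to 3.01) and 0.33 for Cxcl11 (-1.52 to 2.18), with edgeR adjusted p of 0.857, 0.890 and 0.981. None of the 3 passed, at an unadjusted p under 0.05 or with DESeq2 either, where 0.121% of genes were called higher and 0.00603% lower. The intervals leave room for differences of a few fold in either direction for Cxcl11 and upward for the other two.

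**Figure D2:**
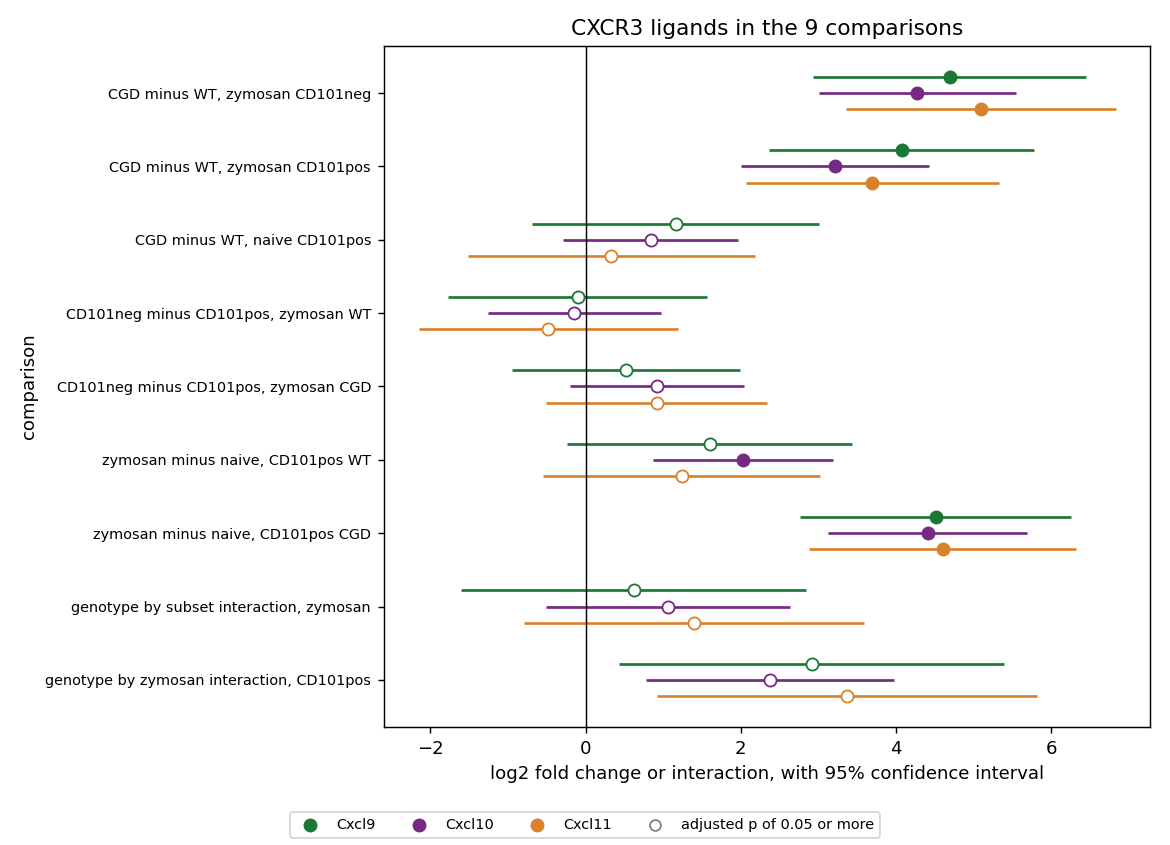
Log2 fold change or interaction of each ligand (horizontal axis) with its 95% confidence interval in the 9 comparisons (vertical axis), filled where the adjusted p was under 0.05. The filled points are all 3 ligands in both zymosan genotype comparisons and in zymosan against naive CGD cells, and Cxcl10 alone in zymosan against naive WT cells.

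Zymosan cells were set against naive cells within CD101pos libraries, where sex and age differ as well. In CGD cells Cxcl10 was higher after zymosan by 4.41 ± 0.61 on the log2 scale (21.2-fold, adjusted p = 0.000117), Cxcl9 by 4.51 ± 0.83 (22.8-fold, adjusted p = 0.00165) and Cxcl11 by 4.60 ± 0.82 (24.3-fold, adjusted p = 0.00117). That made 3 of 3 called higher, with 7.13% of all genes higher and 5.71% lower. In WT cells 1 of 3 was called higher, where 2.92% of genes were higher and 0.875% lower. Cxcl10 rose by 2.03 ± 0.55 (4.09-fold, adjusted p = 0.0479), with all 3 zymosan libraries above all 3 naive ones, a separation not counted over all genes. This call is close to the threshold and was lost in 5 of the 6 fits that left out a library, with adjusted p between 0.0358 and 0.178, and under 3 other settings. Cxcl9 (1.60, 95% interval -0.24 to 3.44, adjusted p = 0.376) and Cxcl11 (1.24, -0.55 to 3.02, adjusted p = 0.505) did not pass in WT cells.

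Whether the zymosan difference itself depended on genotype was tested as an interaction. It was 2.38 ± 0.76 for Cxcl10 (adjusted p = 0.252), 2.91 ± 1.18 for Cxcl9 (adjusted p = 0.374) and 3.36 ± 1.16 for Cxcl11 (adjusted p = 0.296) on the log2 scale by edgeR. None of the 3 passed after adjustment, with DESeq2 either, while 3 had an unadjusted p under 0.05. Over all genes 0.163% had a higher and 0.157% a lower interaction. The genotype effect after zymosan is therefore not shown to differ from that in naive cells by this test, although only the former passed its own.

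Within a genotype, no difference in CXCR3 ligands between the CD101 sorts passed the test in the fit without a replicate block. In WT cells CD101neg minus CD101pos was -0.14 for Cxcl10 (95% interval -1.26 to 0.97), -0.10 for Cxcl9 (-1.77 to 1.57) and -0.48 for Cxcl11 (-2.15 to 1.19), and 0.41% of genes were called higher and 0.0302% lower. In CGD cells it was 0.92 for Cxcl10 (-0.20 to 2.04, adjusted p = 0.322), 0.52 for Cxcl9 (-0.95 to 1.99, adjusted p = 0.709) and 0.91 for Cxcl11 (-0.51 to 2.34, adjusted p = 0.450), where 3.27% of genes were higher and 4.08% lower. With the replicate number as a block within genotype, 792 genes were higher and 933 lower in WT cells, and no ligand was among them. In CGD cells that block gave 0.76 ± 0.13 for Cxcl10 (adjusted p = 0.000428) and 0.78 ± 0.25 for Cxcl11 (adjusted p = 0.0312), both of which passed. With it 1821 of the 16575 tested genes were called higher and 2061 lower in CGD cells. Deviations from group means of same-numbered sorts correlated at only 0.0245 to 0.260 in CGD cells, against 0.312 to 0.487 in WT cells. Without the block none of the 3 passed in either genotype, by edgeR, DESeq2 or an unadjusted p under 0.05. Without CGD CD101neg replicate 3, and again without the block, the CGD differences were -0.0011 for Cxcl10, -0.38 for Cxcl9 and -0.092 for Cxcl11. That fit kept CGD CD101pos replicate 3, the highest of its sort, so it does not show how a paired difference depends on number 3. Between same-numbered CGD sorts, CD101neg over CD101pos levels were 1.53 to 2.16 for Cxcl10, 0.921 to 1.81 for Cxcl9 and 1.53 to 2.09 for Cxcl11.

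The interaction of genotype with sort was 1.06 ± 0.75 for Cxcl10, 0.62 ± 1.05 for Cxcl9 and 1.39 ± 1.04 for Cxcl11 on the log2 scale, with edgeR adjusted p of 0.541, 0.825 and 0.568. None of the 3 passed, at an unadjusted p under 0.05 or with DESeq2 either, where 0.181% of genes had a higher and 0.67% a lower interaction. With the replicate number as a block within genotype the call changed for Cxcl10, whose interaction was then 0.89 ± 0.19 (adjusted p = 0.00431). In that fit 925 of the 16575 tested genes had a higher and 1279 a lower interaction.

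Of the receptor side, Cxcr3 itself went the other way from its ligands. Cxcr3 was at 1.20, 2.93 and 2.77 CPM in CGD CD101neg replicates 1 to 3 and at 6.41, 4.31 and 8.21 CPM in WT ones, a log2 fold change of -1.45 ± 0.46 (adjusted p = 0.0466). In CD101pos cells it was at 3.39, 3.23 and 3.24 CPM in CGD and 9.94, 5.04 and 15.6 CPM in WT, a change of -1.63 ± 0.46 (adjusted p = 0.0449). The groups did not overlap, a separation not counted over all genes, and both calls are near the threshold. Dpp4, the peptidase that trims and inactivates CXCR3 ligands, was lower in CGD CD101neg cells by -1.26 ± 0.34 (1.77 against 4.25 CPM, adjusted p = 0.0204). Ackr1, a scavenger receptor for several chemokines, was higher in CGD CD101pos cells by 4.43 ± 1.16 (2.34 against 0.107 CPM, adjusted p = 0.0314).

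Across the 7 genes listed as receptors, scavengers or proteases of these ligands, none was higher and 2 were lower in CD101neg cells (3 at an unadjusted p under 0.05; 1 higher and 2 lower with DESeq2), and 1 was higher and 1 lower in CD101pos cells (2 and 2 with DESeq2). The list medians were 0.14 and 0.32, beside -0.08 and 0.02 over all genes. The shares of all tested genes called higher and lower were 6.67% and 6.24% in CD101neg and 2.77% and 2.53% in CD101pos cells. When 1 library was left out the lower calls ranged from 0 to 2 in CD101neg cells. In CD101pos cells the higher calls ranged from 0 to 2 and were 0 in 4 of 6 such fits, so the Ackr1 call was lost in those, without WT replicate 2 or 3 or CGD replicate 2 or 3. The lower calls there were 0 in 5 of 6, all but the fit without WT replicate 2, which took the Cxcr3 call with them.

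Interferon transcripts were scarce in every library. Ifng, the type II interferon of T and NK cells, had 0 to 23 counts in a library and was the only 1 of the 10 listed interferon genes with enough to be tested. It did not pass in CD101neg cells (log2 fold change -2.97 ± 1.82, adjusted p = 0.303) or CD101pos cells (1.68 ± 1.63, adjusted p = 0.659). Ifnb1 had at most 8 counts and Ifna2 at most 5, and Ifna1, Ifna4, Ifna5 and Ifne had 0 in all 18 libraries. The whole list of interferons and of cytokines that induce them or act with them had 17 genes, 8 of them tested, of which 4 were higher and none lower in CGD CD101neg cells and 2 higher and none lower in CD101pos cells (medians 0.80 and 1.06). The higher calls fell to 2 in CD101neg cells without WT replicate 1 or CGD replicate 3, and to 1 in CD101pos cells without WT replicate 2 or CGD replicate 2 or 3. Of all tested genes, 6.67% were called higher in CD101neg and 2.77% in CD101pos cells. The members that passed in CD101neg cells were cytokine genes. Il12a, the p35 subunit of IL-12, a driver of interferon gamma production, rose from 8.97 to 86.6 CPM (3.27 ± 0.28) in CD101neg and from 10.5 to 31.4 CPM (1.58 ± 0.27, adjusted p = 0.00218) in CD101pos cells. Il18, which acts with IL-12, rose by 1.48 ± 0.29 and 1.27 ± 0.29, and Il27 and Ebi3, the subunits of IL-27, rose by 2.02 ± 0.49 and 0.89 ± 0.23 in CD101neg cells.

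Among 21 interferon receptors, JAK kinases, STATs and IRFs, 4 were higher and 1 was lower in CGD CD101neg cells and 1 was higher and 1 lower in CD101pos cells (medians 0.37 and 0.01). Over all genes the shares were 6.67% higher and 6.24% lower in CD101neg and 2.77% and 2.53% in CD101pos cells, and 1 of 21 in either direction is near these. When 1 library was left out the higher calls ranged from 2, without CGD CD101neg replicate 3, to 5 in CD101neg and from 1 to 2, without CGD CD101pos replicate 1, in CD101pos cells, and the lower calls fell to 0 in 3 of 6 fits in CD101neg cells (without WT replicate 1 or 3 or CGD replicate 2) and 4 of 6 in CD101pos cells (without WT replicate 2 or 3 or CGD replicate 1 or 2). Irf1, a factor that binds interferon response elements, stood first in both. Its level was 818, 905 and 1685 CPM in CGD CD101neg replicates 1 to 3 against 283, 211 and 256 CPM in WT, a log2 fold change of 2.18 ± 0.28 (adjusted p = 8.9e-05). In CD101pos cells it was 621, 796 and 1207 CPM against 334, 256 and 292 CPM (1.57 ± 0.28, adjusted p = 0.00296), again with replicate 3 highest in CGD. Batf2, a partner of Irf1, rose in CD101neg cells by 3.56 ± 0.65 (8.58 against 0.717 CPM), and the kinase Tyk2 by 0.93 ± 0.28. Irf8, a myeloid factor that can act with Irf1, was lower by -1.17 ± 0.32, and Jak1 was lower in CD101pos cells by -0.65 ± 0.19 (adjusted p = 0.0494).

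The NF-kB list of 11 subunits and inhibitors had 5 higher and none lower in CD101neg cells and 1 higher and none lower in CD101pos cells (medians 0.65 and 0.13). Nfkb1, the p50 subunit, rose by 1.56 ± 0.18 (158 against 53.6 CPM) and 1.05 ± 0.17 (128 against 61.7 CPM). In CD101neg cells Nfkbib rose by 1.32 ± 0.20, Rel by 1.12 ± 0.22 and Nfkb2 by 1.13 ± 0.24. Among 14 brakes on interferon signalling or on chemokine mRNA, 3 were higher in CD101neg and 2 in CD101pos cells and none was lower (medians 0.39 and 0.22), where 6.67% and 2.77% of all genes were higher. When 1 library was left out the higher calls ranged from 1 to 4 in CD101neg cells, with 1 without WT replicate 1 or CGD replicate 2 or 3. In CD101pos cells they fell to 1 in 5 of 6 fits, all but the one without CGD replicate 1, and 1 gene was called lower without WT replicate 1 or CGD replicate 1. With library size only the counts were 0 higher and 1 lower in CD101neg and 1 and 1 in CD101pos cells. The phosphatase gene Ptpn2 rose by 0.94 ± 0.18 and 0.93 ± 0.18. Ptpn6 and the mRNA decay factor Zfp36l1 rose in CD101neg cells, and Socs3 rose in CD101pos cells.

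Every call in the lists of interferon-gamma-induced and type I interferon-induced antiviral genes was in the direction of the ligands in the zymosan genotype comparisons. Of 25 tested interferon-gamma-induced genes, 12 were higher and none lower in CGD CD101neg cells and 8 were higher and none lower in CD101pos cells, with medians of 1.60 and 1.18. The shares of all tested genes called higher were 6.67% and 2.77%. Leaving out 1 library gave 10 to 15 and 4 to 9 higher calls, with the fewest in CD101pos cells, 4, without WT CD101pos replicate 2. Ifi47, an immunity-related GTPase, rose from 28.4 to 511 CPM in CD101neg cells (4.17 ± 0.57) and from 36.1 to 241.9 CPM in CD101pos cells (2.74 ± 0.53), and Irgm1, of the same family, by 3.07 ± 0.45 and 2.27 ± 0.44. Tgtp1 rose by 5.26 ± 0.81 in CD101neg cells, though reads shared with its near-copy Tgtp2 leave their split uncertain. Igtp rose by 2.74 ± 0.48 in CD101neg cells, and Serpina3f and Serpina3g, serine protease inhibitors, by 3.40 ± 0.54 and 2.30 ± 0.45 in CD101pos cells.

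Of 21 type I interferon-induced antiviral genes, 7 were higher and none lower in CGD CD101neg cells, with a median of 1.03. Among all tested genes 6.67% were called higher there. In CD101pos cells none passed by edgeR, 4 had an unadjusted p under 0.05 and DESeq2 called 1, with a median of 0.51. The count of 7 was unsteady, between 1, without WT CD101neg replicate 3, and 10, without CGD CD101neg replicate 1. In CD101neg cells Isg15, a ubiquitin-like modifier, rose by 1.81 ± 0.36 (342 against 97.5 CPM), Zbp1, a nucleic acid sensor, by 1.90 ± 0.47, Ifit1 by 1.91 ± 0.54 and Mx2 by 2.98 ± 0.85. In CD101pos cells Mx2 (2.63 ± 0.84, adjusted p = 0.0780) and Isg15 (0.86 ± 0.36, adjusted p = 0.197) were closest. In naive cells neither interferon list had a call by edgeR, with 1 of 25 and 6 of 21 genes at an unadjusted p under 0.05 and 1 call in each by DESeq2. Over all tested genes in naive cells, edgeR called 20 higher and 1 lower and DESeq2 93 higher and 17 lower. How many of all genes had an unadjusted p under 0.05 was not counted, so 6 of 21 has no background here. The naive medians of CGD over WT were 0.04 for the interferon-gamma list and 0.81 for the type I list. The type I median was thus higher in naive than in zymosan CD101pos cells. Its median interaction of genotype with zymosan was -0.17.

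**Figure D3:**
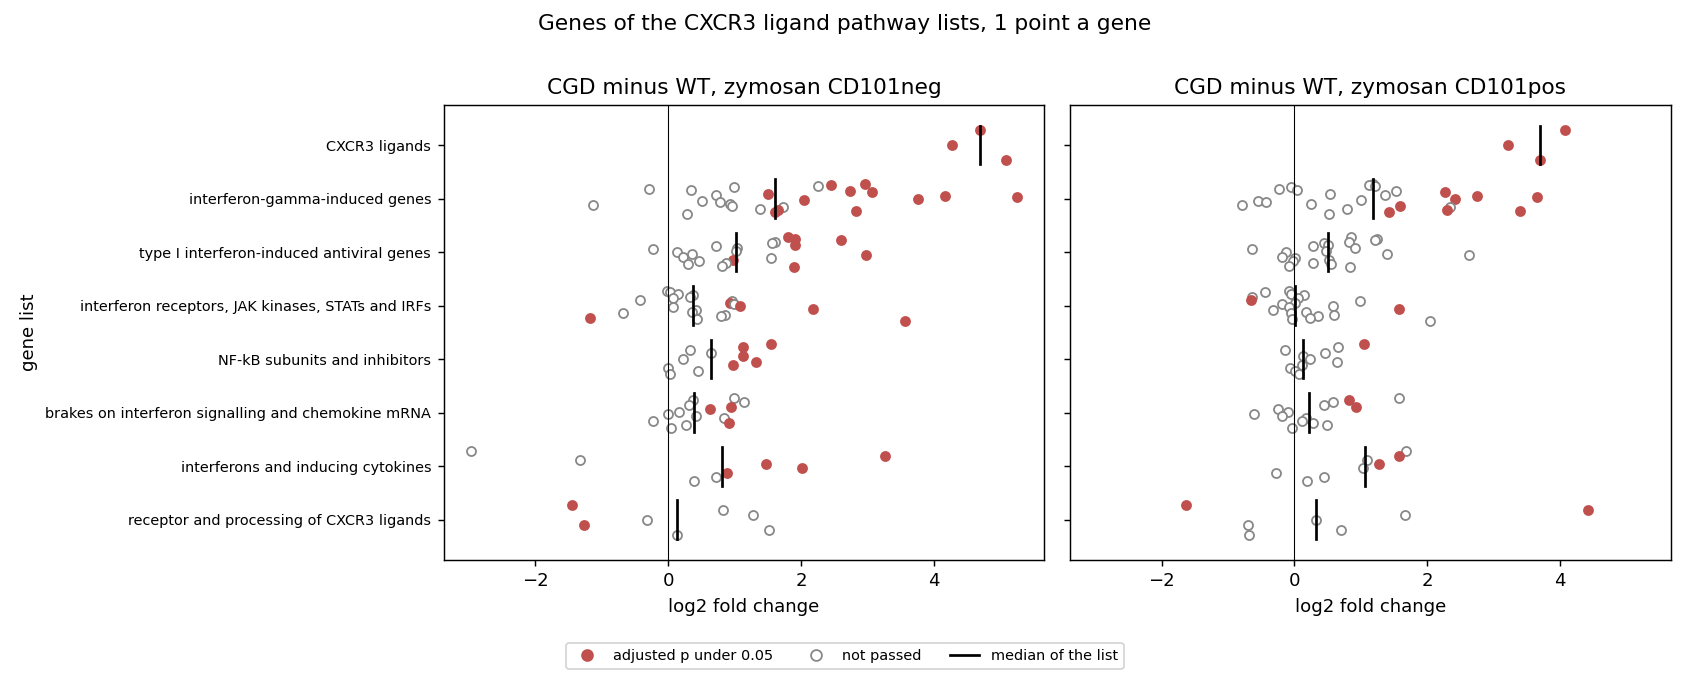
Log2 fold change of CGD over WT (horizontal axis) of each tested gene of 8 gene lists (vertical axis) in zymosan CD101neg cells (left) and CD101pos cells (right), red where the adjusted p was under 0.05, with a bar at each list's median. The 3 CXCR3 ligands lie at 3.21 or above in both panels, while the list of 25 interferon-gamma-induced genes spreads around 1.60 and 1.18.

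Other chemokine genes did not share 1 pattern. Their counts stand beside 6.67% of all tested genes called higher and 6.24% lower in CD101neg cells. In CD101pos cells these shares were 2.77% and 2.53%. Of 6 neutrophil-attracting ligands of CXCR2, 3 were higher in CGD CD101neg and 2 in CD101pos cells and none was lower. Cxcl3 rose by 3.24 ± 0.30 (5396 against 569 CPM) and 2.93 ± 0.30, and Cxcl2 rose by 1.08 ± 0.23 in CD101neg cells. Of 7 other CXC and CX3C chemokine genes, 2 were lower and none higher in CD101neg cells (4 at an unadjusted p under 0.05; none higher with DESeq2 either) and 1 was higher in CD101pos cells (3 with DESeq2). The lower calls fell to 0 without WT CD101neg replicate 2 or CGD CD101neg replicate 3 and to 1 without CGD CD101neg replicate 1 or 2, and the higher call became 3 without WT CD101pos replicate 1. Pf4, a platelet chemokine, was lower by -1.43 ± 0.37 in CD101neg cells. Cxcl13, a B cell attractant, was lower in CD101neg cells by -1.70 ± 0.46 and higher in CD101pos cells by 2.38 ± 0.47.

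By the rule for genes with the most similar pattern, Irf1 was among the 5 closest to each ligand over all 18 libraries, by Pearson's r of log2 CPM. For Cxcl10 these were F3 (r = 0.97), which encodes tissue factor, Irf1 (0.97), Casp8 (0.96), Gtf2f1 (0.95) and P4hb (0.95). For Cxcl9 they were Irf1 (0.94), Tgtp1 (0.94), P4hb (0.93), Ccdc86 (0.92) and Rcan1 (0.92). For Cxcl11 they were Gbp2b (0.97), Irf1 (0.96), Adamts4 (0.93), Tgtp1 (0.93) and Noc4l (0.93). The 18 points share their 6 groups, so the genotype and zymosan differences set much of these values. The ligands correlated with one another at 0.96 for Cxcl9 with Cxcl10, 0.92 for Cxcl9 with Cxcl11 and 0.94 for Cxcl10 with Cxcl11, and after the group means were subtracted at 0.70, 0.50 and 0.62.

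With group means subtracted other genes came first. Closest to Cxcl10 were Ifi213 (r = 0.94), Sh3tc1 (0.94), Erap1 (0.93), Fam129b (0.93) and Cdk4 (0.92), of which Erap1 trims peptides for MHC class I. For Cxcl9 they were Ncoa5 (0.87), Paqr4 (0.86), Slc17a5 (0.85), U2af1 (0.85) and H2-K1 (0.85), a class I heavy chain. For Cxcl11 they were Slc30a1 (0.94), Nup133 (0.90), Spr (0.90), Tmem229b (0.89) and Lrpprc (0.89). No gene was among the 5 of more than 1 ligand in this measure. These r are the highest picked from all tested genes other than the ligands and predicted gene models, on 12 residual degrees of freedom. Outside the CGD zymosan groups Cxcl9 had at most 58 and Cxcl11 at most 44 counts in a library. Their deviations there carry wide counting error. Paqr4, Slc30a1, Nup133 and Lrpprc were scarce too, with group means of 0.669 to 2.39 CPM.

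**Figure D4:**
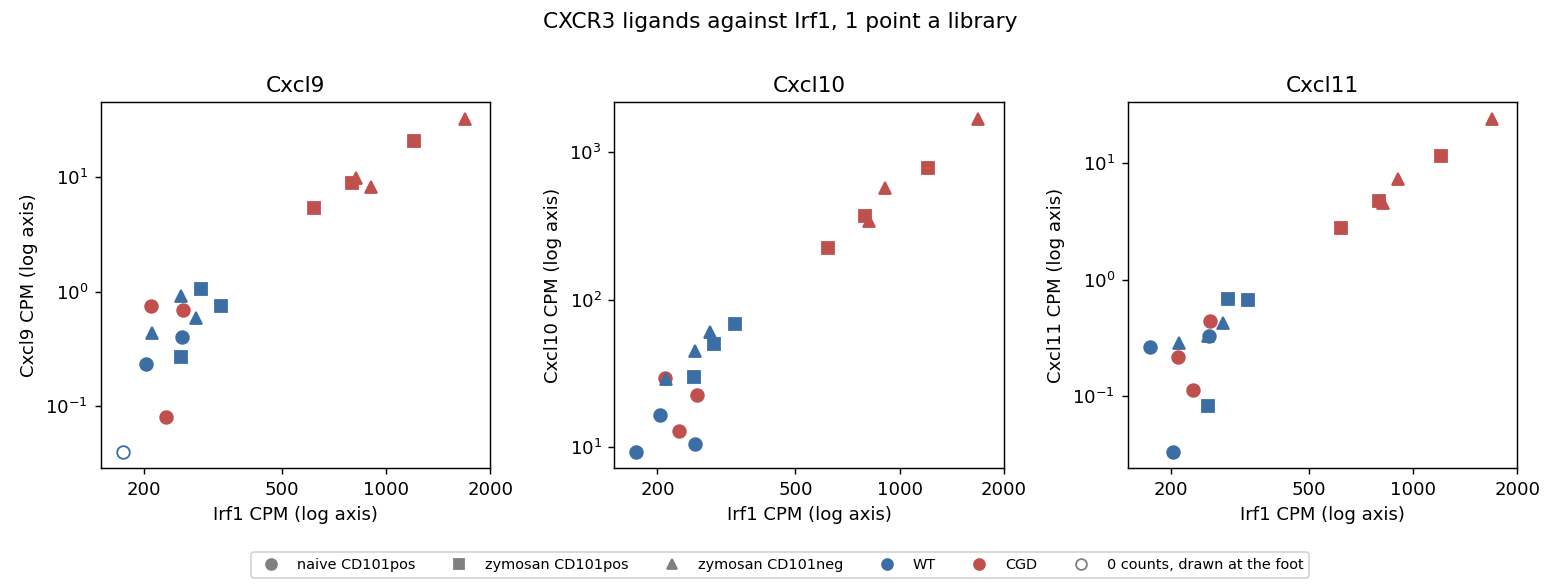
Level of each ligand (vertical axis, CPM, log scale) against Irf1 (horizontal axis, CPM, log scale) in the 18 libraries, coloured by genotype with symbols for treatment and sort. The 6 CGD zymosan libraries lie at the upper right, with Irf1 between 621 and 1685 CPM, and the 12 other libraries at or below 334 CPM of Irf1.

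The neighbours of the ligand genes on chromosome 5 were examined in the same fits, because Cxcl9, Cxcl10 and Cxcl11 lie side by side and Art3, a gene of the ADP-ribosyltransferase family, runs across Cxcl10 and Cxcl11. In GENCODE M21 the exons of Cxcl9 (3016 bases) overlap no other gene, 133 of the 2252 exon bases of Cxcl10 (5.91%) overlap Art3 on the opposite strand, and 1582 of the 3794 exon bases of Cxcl11 (41.7%) overlap the predicted gene Gm2673. Whether reads were counted by strand is not given in the sources used here. The log2 fold change of Art3 was 0.34 ± 0.23 in CD101neg and 0.32 ± 0.23 in CD101pos cells, and it did not pass in either. On either side, Naaa (-0.19 and 0.46), Sdad1 (-0.91 and 0.44), Ppef2 (0.69 and 1.15), Nup54 (0.15 and -0.05), Scarb2 (0.41 and -0.26) and Fam47e (-0.12 and -0.98) did not pass either, with Ppef2 and Fam47e measured on few counts.

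**Figure D5:**
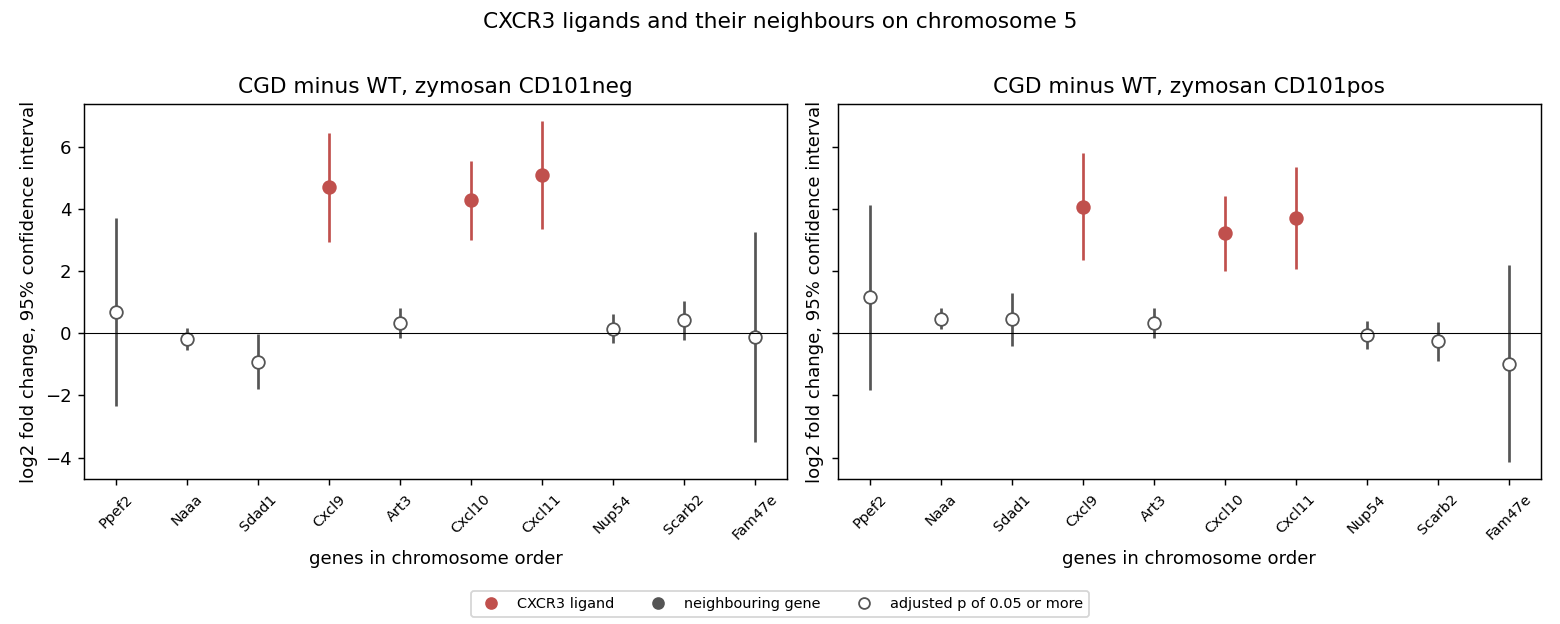
Log2 fold change of CGD over WT with its 95% confidence interval (vertical axis) for the 3 CXCR3 ligands and 7 neighbouring genes in chromosome order (horizontal axis), in zymosan CD101neg cells (left) and CD101pos cells (right), filled where the adjusted p was under 0.05. The ligands lie between 3.21 and 5.09, and no neighbour passed.

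Markers of other cells that can make CXCR3 ligands, or that carry CXCR3, were summed per library. In bulk samples, fewer cells of a type and less RNA per cell cannot be told apart. The 12 monocyte and interstitial macrophage markers summed to 1344 to 1468 CPM in CGD and 1511 to 1791 CPM in WT CD101neg cells, and to 1437 to 1723 and 1408 to 1672 CPM in CD101pos cells. The 9 dendritic cell markers summed to 8.99 to 10.2 CPM in CGD and 16.6 to 22.0 CPM in WT CD101neg cells, with Siglech at 0 in all 3 CGD libraries, and to 19.3 to 28.2 and 14.9 to 22.9 CPM in CD101pos cells. The 13 T and NK cell markers, the cells in which Cxcr3 and Ifng are best known, summed to 13.1 to 18.3 CPM in CGD and 25.3 to 27.7 CPM in WT CD101neg cells and to 18.9 to 26.7 and 15.7 to 23.1 CPM in CD101pos cells. In CD101neg cells these 3 sums were therefore lower in CGD, where the ligands were higher. Gene by gene, 8 of 12, 3 of 9 and 4 of 13 of these markers were called lower and none higher in CGD CD101neg cells, while in CD101pos cells 4 of the 12 monocyte and macrophage markers were higher and 1 was lower. Of all tested genes, 6.67% were called higher and 6.24% lower in CD101neg cells. In CD101pos cells these shares were 2.77% and 2.53%.

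The sum of the 10 alveolar macrophage markers was higher in CGD cells of both sorts, as the ligands were, while most single markers were not higher in CD101neg cells. They summed to 1563 to 2586 CPM in CGD and 414 to 659 CPM in WT CD101neg cells, and to 2272 to 2733 and 368 to 654 CPM in CD101pos cells. Most of this was Chil3, which neutrophils also express. The other 9 markers summed to 182 to 265 CPM in CGD and 167 to 313 CPM in WT CD101neg cells. In CD101pos cells they summed to 328 to 600 CPM in CGD and 163 to 358 CPM in WT. The genotypes overlap in both sorts. Of the 10 markers, 1 was called higher and 5 lower in CGD CD101neg cells, and 5 were higher and none lower in CD101pos cells. The shares of all tested genes called higher and lower were 6.67% and 6.24% in CD101neg and 2.77% and 2.53% in CD101pos cells. The 9 epithelial markers summed to 322 to 590 CPM in CGD and 498 to 1067 CPM in WT CD101neg cells and to 1016 to 1245 and 406 to 1407 CPM in CD101pos cells. Endothelial sums overlapped between the genotypes in both sorts, those of fibroblasts were lower in CGD CD101neg cells (37.9 to 40.7 against 71.1 to 83.5 CPM), and those of B cells were lower in CGD cells of both sorts. The part of these markers in the ligand differences was not tested.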

How the data were processed

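The data were 18 RNA sequencing libraries of sorted mouse lung neutrophils. The values are raw read counts per gene deposited by the authors, who used featureCounts 1.4.6-p5, STAR 2.5.1a and Subread, per the submitters' processing notes, from libraries of the Clontech SMARTer kit, per the labels' protocols. The genome build, the annotation and the use of strand were not given in the sources used here. Of 40757 lines, 276 repeated a gene ID and were dropped. No sample column was left unused. Gbp5, Gbp6 and Gbp10 were not analysed here.

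filterByExpr by group kept 16575 genes. All comparisons came from 1 robust quasi-likelihood fit of edgeR 4.0.16 in R 4.3.3, with TMM factors, 6 group means and 12 residual degrees of freedom. Genes passed at a Benjamini-Hochberg adjusted p under 0.05 over all tested genes. CPM use TMM factors, and the SE is the log2 fold change divided by the square root of F. The method was tested on simulated data. An absent count allows up to 3 counts, and this limit and the intervals of levels cover counting error only.

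The ligands and gene lists were chosen with earlier results of these data known. Named were the ligands in every comparison, up to 4 list members with the lowest adjusted p (2 where none passed), the 5 genes with the highest r to each ligand (log2 CPM, prior count 2), and 3 neighbours on each side with Art3. The ligands and predicted gene models or numbered clones were left out of the ranking by r. Lists were described by counts and medians. The share of all genes at an unadjusted p under 0.05 was not counted in any comparison. Of all genes, DESeq2 called 1547 higher and 1400 lower in CGD against WT zymosan CD101neg cells, and 693 and 712 in CD101pos cells.

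Alternatives were RLE factors, library size only, DESeq2 1.42.0, no filter, only the groups compared, blocks by replicate number or title number, and each library left out. Deviations from group means of same-numbered WT CD101neg and CD101pos libraries correlated at 0.312 to 0.487, and those of CGD libraries at 0.0245 to 0.260. The main fit held no block, so its intervals between the sorts leave any pairing out. A block by number within genotype was an alternative only.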

Additional observations from a re-analysis of the deposited data

How the results depend on the processing

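For the ligands, 164 values under other settings kept their direction and their side of the threshold, 3 lost and 3 gained a call and 1 reversed. With 1 library left out, 183 kept both, 5 lost the call and 10 reversed. All 3 ligands stayed called in both zymosan genotype comparisons under every setting and with each library left out. There the leave-one-out values ran in CD101neg cells from 3.36 to 4.66 for Cxcl10, 3.80 to 5.02 for Cxcl9 and 4.09 to 5.48 for Cxcl11, and in CD101pos cells from 2.59 to 3.54, 3.37 to 4.49 and 2.95 to 4.05. The exceptions follow, and their cause was not tested. Cxcl10 in zymosan against naive WT cells no longer passed with library size only (1.79, adjusted p = 0.102), without a low-count filter (2.07, adjusted p = 0.167) or with the replicate block (1.99, adjusted p = 0.0610), and ran from 1.72 to 2.32 with 1 library left out, where 5 of 6 fits lost the call. Cxcl9 in CD101neg against CD101pos WT cells turned to 0.0097 with library size only. With 1 library left out, values that had not passed crossed 0: for CD101neg against CD101pos WT cells -0.47 to 0.32 (Cxcl9) and -0.42 to 0.17 (Cxcl10), for CGD cells -0.38 to 1.23 (Cxcl9), -0.0011 to 1.54 (Cxcl10) and -0.092 to 1.66 (Cxcl11), for Cxcl9 in the interaction of genotype with sort -0.28 to 1.33, and for Cxcl11 in naive CGD against WT cells -0.31 to 0.92.

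The labels do not say that both sorts of a number came from 1 mouse. CGD CD101neg number 2 correlated at 0.0245 with its own number in CD101pos cells and at 0.0121 with number 3, a small margin. Counting each pair from both sorts, 12 of 12 zymosan libraries correlated best with their own number in the other sort. With that number within genotype as a replicate block, Cxcl10 (0.76 ± 0.13, adjusted p = 0.000428) and Cxcl11 (0.78 ± 0.25, adjusted p = 0.0312) passed in CD101neg against CD101pos CGD cells, and Cxcl10 passed in the interaction of genotype with sort (0.89 ± 0.19, adjusted p = 0.00431). That block raised the genes called in WT sorts from 68 higher and 5 lower to 792 and 933, in CGD sorts from 542 and 676 to 1821 and 2061, and in the interaction from 30 and 111 to 925 and 1279. The block by number over all 18 libraries changed no other call of a ligand. With library size only the median of all genes in CD101neg cells moved from -0.08 to -0.57, with 413 genes higher and 3572 lower, and the ligands were at 3.80 (Cxcl10), 4.24 (Cxcl9) and 4.64 (Cxcl11). The 7 higher type I interferon-induced genes in CD101neg cells became 2 with library size only, without a filter and with only the groups compared, and the 8 higher interferon-gamma-induced genes in CD101pos cells became 5 without a filter. In CD101neg cells the 5 higher NF-kB genes became 2 with library size only and 3 with only the groups compared, the 3 higher brakes 0 and 1, and the 4 higher receptors, JAK kinases, STATs and IRFs 2 and 2, or 7 with DESeq2. Depth limited Cxcl9 and Cxcl11 outside the CGD zymosan groups, at 58 and 44 counts or fewer.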

Other observations

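In same-numbered zymosan libraries, the level of Cxcl10 in CD101neg cells was 1.53 to 2.16 times that in CD101pos cells in the 3 CGD numbers and 0.879 to 0.97 times in the 3 WT numbers. For Cxcl11 these ratios were 1.53 to 2.09 in CGD and 0.477 to 3.50 in WT, and for Cxcl9 0.921 to 1.81 and 0.785 to 1.65. Within a sort the highest CGD library held 3.48 (CD101pos) and 4.92 (CD101neg) times the Cxcl10 of the lowest, and the highest WT library 2.32 and 2.10 times. The labels do not say that same-numbered sorts came from 1 mouse.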
